A study of Arabidopsis thaliana with 6 samples.

Results

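The autophagy genes of Arabidopsis thaliana that carry an ATG symbol were followed across 6 Affymetrix ATH1 arrays, where a transcript is read by a set of short probes, its probe set. They are the single-gene probe sets whose annotation symbol starts with ATG and a digit. The rule found 8 genes with 1 probe set each, among 13350 gene symbols with a single-gene probe set and 22746 probe sets tested. They are ATG8B, ATG8C, ATG8D, ATG8E, ATG8F, ATG8G and ATG8H, 7 members of the ATG8 family, and ATG3. The rule reads the symbol and no measured value, but it was set with earlier results of these data known. All 8 were tested, since no filter on level was applied.

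All plants were labelled as 3 weeks old, and total RNA of each group was put on 2 arrays, described as biological replicates in the design text. The first group was the wild type Col-0 exposed to ethylene gas at 10 ppm, for 4 h by the sample characteristics and for 24 h by the array titles. The second was amiR-ETP1/2, a line made in Col-0 that carries an artificial microRNA against the F-box protein genes ETP1 and ETP2. The third was Col-0 in hydrocarbon-free air. The labels name no organ, leave the air or gas given to amiR-ETP1/2 unstated, and give no promoter for the artificial microRNA and no number of lines. The growth protocol describes plates wrapped in foil, followed by soil under a light and dark cycle, and does not say which of these the arrays come from.

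Autophagy encloses parts of the cytoplasm in a double membrane, the autophagosome, and delivers them to the vacuole, where they are broken down and their building blocks are recovered. ATG8 is a small ubiquitin-like protein that becomes attached to the lipid phosphatidylethanolamine of the growing membrane, where it recruits cargo receptors. The protease ATG4 trims ATG8, ATG7 activates it and ATG3 transfers it to the lipid. In plants ATG8 is encoded by a gene family, and autophagy is known for its part in nutrient starvation, in darkness and in leaf senescence.

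The levels are the deposited values, read as log2 from their range. Across probe sets, which do not count as independent, Pearson's r was 0.791 to 0.810 between the ethylene arrays and the other arrays and 0.975 to 0.987 among the amiR-ETP1/2 and air arrays, so the ethylene arrays stood apart. ETP2, a target of the artificial microRNA, had log2 levels of 4.23 and 4.47 in the amiR-ETP1/2 arrays and 4.06 and 4.14 in the air arrays, a difference of 0.25 (SE 0.14, limma adjusted p = 0.448), and ETP1 was not analysed here. The arrays therefore did not show a lower target transcript in the arrays labelled amiR-ETP1/2, and amiR-ETP1/2 is used below as the label of these arrays. The array medians were 4.39 to 4.46, so ETP2 lay near or below the middle of each of them. In the actin control the 3' end exceeded the middle by 2.02 and 2.17 log2 units in the ethylene arrays, 0.89 in each amiR-ETP1/2 array and 0.32 and 0.83 in the air arrays, while it exceeded the 5' end by 3.40 and 3.51 in the ethylene arrays, 4.78 and 5.20 in the amiR-ETP1/2 arrays and 4.04 and 4.68 in the air arrays. A listed gene counts as measured here where the annotation gave it a single-gene probe set. Of 5 markers of green tissue, 3 were measured (RCA, LHCB4.2 and PSAE-1), and their summed unlogged levels were 2827 and 2932 in the ethylene arrays, 21712 and 23613 in the amiR-ETP1/2 arrays and 22720 and 23816 in the air arrays. All 3 fell with ethylene relative to air, with log2 differences of -4.12 for RCA, -3.36 for LHCB4.2 and -2.23 for PSAE-1 (adjusted p at most 1.01e-05), and none was called in amiR-ETP1/2 against air (limma, 0 at an unadjusted p under 0.05). Of 4 root markers, 2 were measured (EXPA7 and EXPA18), with sums of 33.1 and 43.2 in the ethylene arrays, 29.2 and 45.4 in the amiR-ETP1/2 arrays and 33.7 and 58.9 in the air arrays. Neither was called with ethylene (EXPA7 -0.59, adjusted p = 0.382, and EXPA18 0.35, adjusted p = 0.133). The lowest value of each array was between 2.99 and 3.11, so a level of 0 could not occur and cannot mark an undetected gene. In air, EXPA18 exceeded only 23.8% to 25.5% of all probe sets, and EXPA7 exceeded 47.4% to 69.1%. Whether the root markers were detected was not tested. Of 6 senescence and dark markers, 0 were measured. Genes not measured here may still be read by the 8737 probe sets without a gene name, or by those of several genes. The part of the green tissue levels and of the actin end difference in the ATG results was not tested.

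The comparison of ethylene with air asked how treated and untreated Col-0 differed. All 8 ATG genes were higher in the ethylene arrays, by between 2.07-fold for ATG3 and 16.6-fold for ATG8B, and the ethylene arrays lay above the air arrays in each of them. Calls were made at an adjusted p under 0.05 (limma, Benjamini-Hochberg over all 22746 probe sets), by which 36.0% of all probe sets were called, 18.9% higher and 17.1% lower. The ethylene and air arrays did not overlap in 66.4% of all probe sets. The median log2 difference was 1.76 over the 8 genes and -0.00281 over all probe sets tested. In RNA from many cells, fewer cells of a type and less RNA per cell cannot be told apart. The exposure time is stated in 2 ways, so these differences cannot be assigned to 4 h or 24 h.

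The largest rises were in ATG8B, ATG8H and ATG8E. ATG8B (AT4G04620, chromosome 4) showed log2 levels of 9.51 and 9.38 in the ethylene arrays, 5.49 and 5.91 in the amiR-ETP1/2 arrays and 5.41 and 5.37 in the air arrays. The lowest ethylene array lay 3.97 above the highest air array, while replicates of ATG8B differed by 0.42 at most. Its log2 difference of ethylene from air was 4.06 (SE 0.16, n = 2 arrays per group, adjusted p = 2.75e-06), and 135 of all probe sets had a larger one.

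ATG8H (AT3G06420, chromosome 3) encodes an ATG8 form that ends in the exposed glycine by which ATG8 is joined to lipid, so that it does not need trimming by ATG4. Its log2 levels were 9.23 and 8.99 in the ethylene arrays, 5.07 and 5.27 in the amiR-ETP1/2 arrays and 5.01 and 5.12 in the air arrays. The amiR-ETP1/2 and air arrays overlapped and the ethylene arrays stood above both. The rise was 16.5-fold (log2 difference 4.04, SE 0.14, adjusted p = 1.84e-06). ATG8E (AT2G45170, chromosome 2), widely used in plants as a tagged marker of autophagosomes, had log2 levels of 10.13 and 9.93 in the ethylene arrays, 6.29 and 6.74 in the amiR-ETP1/2 arrays and 7.06 and 6.94 in the air arrays. The 3 groups of ATG8E were in the order ethylene, air and amiR-ETP1/2 without overlap, and only the step from air to amiR-ETP1/2 missed the test. With ethylene it rose 8.16-fold (log2 difference 3.03, SE 0.18, adjusted p = 1.33e-05).

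**Figure D1:**
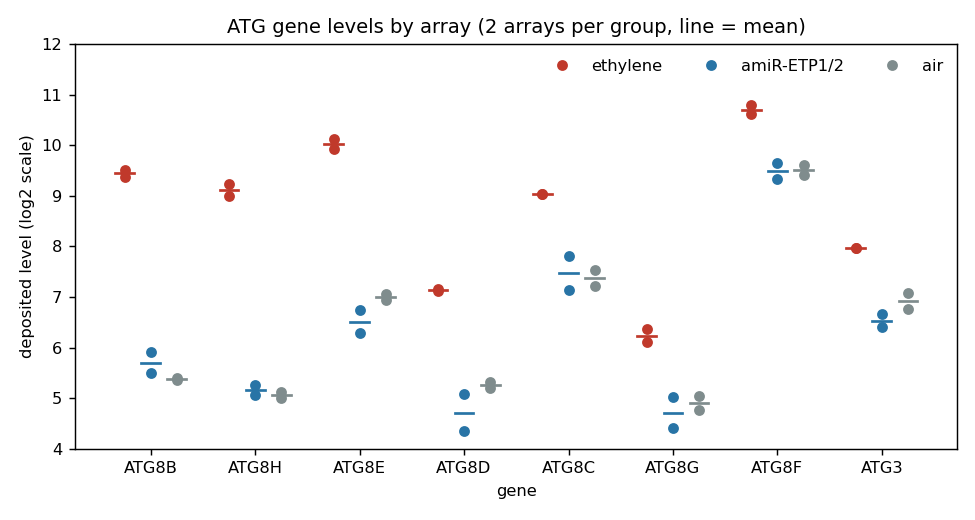
Deposited log2 level of each ATG gene (vertical axis) in every array, with the ethylene, amiR-ETP1/2 and air arrays side by side for each gene and a line at the mean of 2 arrays. Ethylene arrays lie above all other arrays in each of the 8 genes, and the gap is widest in ATG8B, ATG8H and ATG8E.

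The other ATG8 genes rose by less. The log2 levels of ATG8D (AT2G05630, chromosome 2) were 7.12 and 7.15 in the ethylene arrays, 4.34 and 5.09 in the amiR-ETP1/2 arrays and 5.20 and 5.32 in the air arrays. Its replicates differed by 0.03 with ethylene and by 0.74 in amiR-ETP1/2, and it rose 3.65-fold with ethylene (log2 difference 1.87, SE 0.23, adjusted p = 0.000515). ATG8C (AT1G62040, chromosome 1) had 9.03 in each ethylene array, 7.14 and 7.80 in the amiR-ETP1/2 arrays and 7.53 and 7.22 in the air arrays. Here the air arrays lay between the amiR-ETP1/2 arrays, and the rise with ethylene was 3.15-fold (log2 difference 1.65, SE 0.22, adjusted p = 0.000854).

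For ATG8G (AT3G60640, chromosome 3) the log2 levels were 6.36 and 6.11 in the ethylene arrays, 4.40 and 5.03 in the amiR-ETP1/2 arrays and 5.04 and 4.76 in the air arrays. In the amiR-ETP1/2 and air arrays, ATG8G was above 50.5% to 61.4% of all probe sets of its array. It rose 2.52-fold (log2 difference 1.33, SE 0.22, adjusted p = 0.00253). ATG8F (AT4G16520, chromosome 4) reached 10.79 and 10.61 in the ethylene arrays, 9.34 and 9.64 in the amiR-ETP1/2 arrays and 9.61 and 9.42 in the air arrays. Its probe set was above at least 96.3% of all probe sets in every array, and it rose 2.27-fold with ethylene (log2 difference 1.18, SE 0.16, adjusted p = 0.000735).

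ATG3 (AT5G61500, chromosome 5), the enzyme that passes ATG8 to its lipid, was the only gene found by the symbol rule outside the ATG8 family. ATG3 had 7.97 in each ethylene array, 6.41 and 6.66 in the amiR-ETP1/2 arrays and 7.08 and 6.77 in the air arrays. The groups did not overlap, with ethylene highest and amiR-ETP1/2 lowest. The rise with ethylene, 2.07-fold, was the smallest of the 8 (log2 difference 1.05, SE 0.16, adjusted p = 0.00141).

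The sizes of these rises varied among the ATG8 genes. The 95% confidence intervals of the log2 difference were 3.67 to 4.44 for ATG8B and 3.71 to 4.38 for ATG8H, which overlap nearly throughout. ATG8E had an interval of 2.61 to 3.45, which meets neither of them and also lies above that of ATG8D, 1.33 to 2.41. The intervals of ATG8D, ATG8C (1.13 to 2.18), ATG8G (0.81 to 1.86), ATG8F (0.82 to 1.55) and ATG3 (0.68 to 1.42) overlap one another. The differences between genes were not tested. Signal relative to background was not part of the deposited values, so each fold is a ratio of those values.

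**Figure D2:**
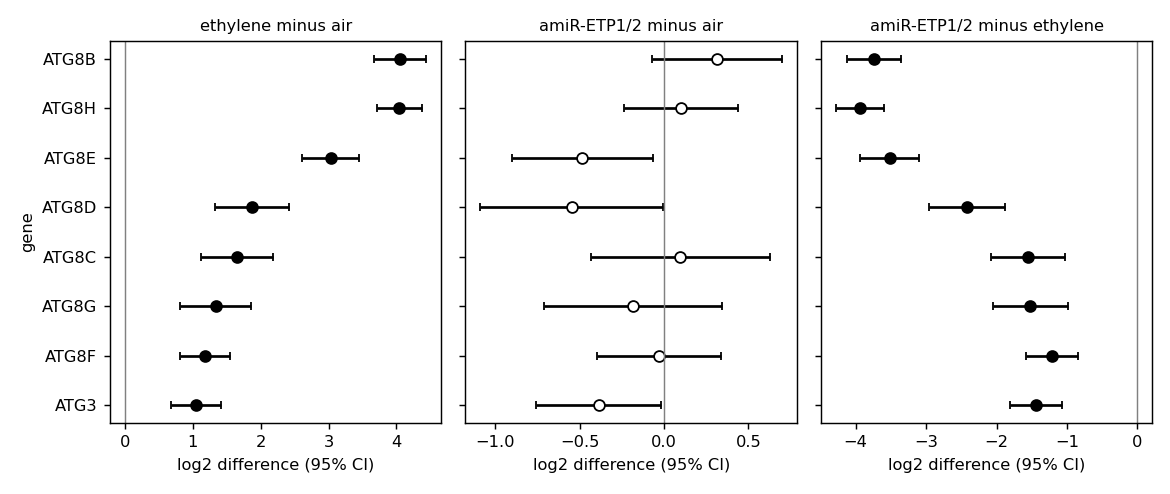
Log2 difference of each ATG gene with its 95% confidence interval from limma, in panels for ethylene minus air, for amiR-ETP1/2 minus air and for amiR-ETP1/2 minus ethylene, with 2 arrays per group and a horizontal scale of its own in each panel. Filled points passed an adjusted p of 0.05, which holds for 8 genes against air with ethylene, 0 genes in amiR-ETP1/2 against air and 8 genes in amiR-ETP1/2 against ethylene.

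Against all probe sets on the arrays, the ATG genes lay in the upper part of the ethylene differences. ATG8B and ATG8H were each above 99.4% of all probe sets, ATG8E above 98.4% and ATG8D above 95.5%. The lowest was ATG3, above 89.4%.

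**Figure D3:**
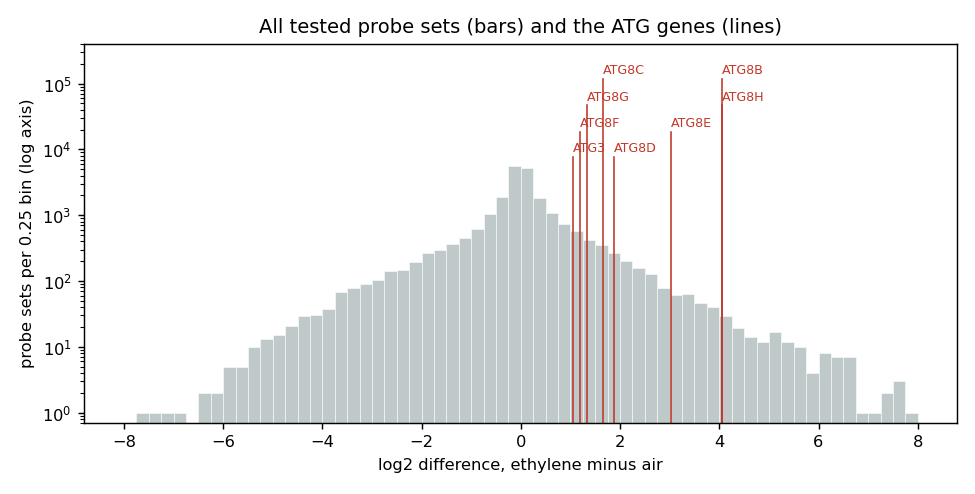
Number of probe sets (log axis) by their log2 difference of ethylene from air in bins 0.25 wide, over the 22746 probe sets tested, with a red line at the value of each ATG gene. The 8 lines lie between 1.05 and 4.06, right of the peak of the distribution near 0.

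The ATG8 family has further members whose annotation symbols fall outside the rule. APG8A (AT4G21980), listed in RefSeq also as ATG8A, had log2 levels of 9.66 and 9.48 in the ethylene arrays, 6.95 and 7.42 in the amiR-ETP1/2 arrays and 6.83 and 6.90 in the air arrays. It rose 6.52-fold with ethylene (adjusted p = 2.17e-05), which places its rise between those of ATG8D and ATG8E. AT3G15580 carries the symbol APG8H but is ATG8I by its RefSeq synonym, and is not the ATG8H gene described above. It had log2 levels of 10.59 and 10.66 in the ethylene arrays, 8.91 and 9.15 in the amiR-ETP1/2 arrays and 9.004 and 9.22 in the air arrays. Like ATG8H it encodes a form that ends in the exposed glycine, yet its rise was 2.85-fold (log2 difference 1.51, SE 0.14, adjusted p = 0.000137). The 95% interval for ATG8I, 1.17 to 1.85, lies below that of ATG8H. Members of the family resemble one another in sequence, and how far a probe set of one also reports another was not measured here.

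Of the ATG machinery, 39 loci were listed, and 19 had a single-gene probe set. Apart from the 8 genes above, 11 were measured, of which 10 rose with ethylene, 0 fell and 1 was not called, with a median log2 difference of 1.27. The called share of rises over all probe sets was 18.9%. Fewer of the 11 were called when any single ethylene or air array was left out. Besides APG8A and AT3G15580, the smallest p-values belonged to AT1G77890, which rose 3.48-fold (adjusted p = 3.35e-05), and AT5G66930, which rose 3.43-fold (adjusted p = 0.000521). AT5G66930 is ATG101 by its RefSeq synonym, a subunit of the kinase complex that starts autophagosome formation. AT3G18770 was the locus not called, with a difference of -0.11 (adjusted p = 0.598). AT1G77890 and AT3G18770 carry no gene name in the tables used here.

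Regulators and downstream enzymes of the pathway were covered thinly by the single-gene probe sets of the annotation. As a background to the counts below, ethylene against air gave rises in 18.9% of the whole array and falls in 17.1%. In the list of the kinase complexes TOR, which restrains autophagy when nutrients are plentiful, and SnRK1, which promotes it when energy is short, 5 of 11 loci were measured, of which 2 rose, 1 fell and 2 were not called. AKINBETA1 (AT5G21170), a beta subunit of SnRK1, had log2 levels of 10.46 and 10.53 in the ethylene arrays, 5.52 and 5.64 in the amiR-ETP1/2 arrays and 6.96 and 6.44 in the air arrays, and rose 13.9-fold with ethylene (adjusted p = 5.9e-06). The 3 groups did not overlap. AT2G28060, listed as KINbeta3 in RefSeq, rose 2.05-fold (adjusted p = 0.000821), while AT4G16360, listed as KINbeta2, fell by 0.57 on the log2 scale (adjusted p = 0.0214). The call of KINbeta2 was lost without any one of the 4 ethylene and air arrays (differences of -0.60 to -0.54, adjusted p of 0.063 to 0.11). These are further beta subunits of the same kinase. RAPTOR1 and RAPTOR2, which encode the subunit that presents substrates to TOR, had differences of 0.51 (adjusted p = 0.0814) and -0.49 (adjusted p = 0.0667). RAPTOR1 was called without ethylene array 1, with a difference of 0.80 (adjusted p = 0.0137).

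The next 2 lists are also to be read beside the 18.9% of all probe sets called higher with ethylene. In the list of vacuolar delivery and proteases, 2 of 9 loci were measured. ALPHA-VPE (AT2G25940), a vacuolar processing enzyme, rose 3.09-fold with ethylene (limma adjusted p = 0.00016), and GAMMA-VPE had a difference of 0.45 (adjusted p = 0.187). The log2 levels of ALPHA-VPE in the air arrays were low, 3.84 and 3.58, above 9.6% to 28.4% of all probe sets. In the list of the phosphatidylinositol 3-kinase complex, receptors and adaptors, 4 of 15 loci were measured and 3 rose, none of them named in the tables used here, with differences of 0.44 for AT4G34660, 0.55 for AT2G32760 and 1.21 for AT3G43230. This count was 0 without ethylene array 2, and 1 without ethylene array 1 or without air array 2.

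**Figure D4:**
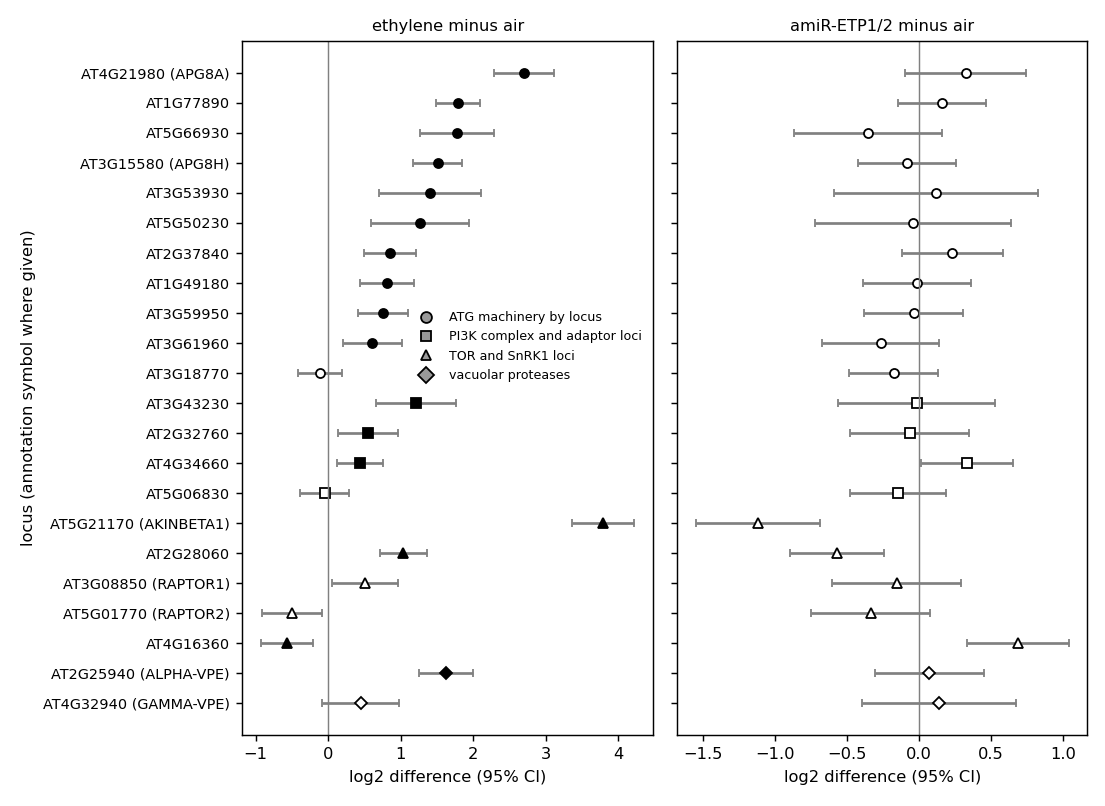
Log2 difference with its 95% confidence interval for the measured loci of 4 pathway lists other than the 8 ATG genes, for ethylene minus air (left) and amiR-ETP1/2 minus air (right, on a scale of its own). Filled markers passed an adjusted p of 0.05, and marker shapes give the list. With ethylene 10 of 11 further ATG loci are filled, and in amiR-ETP1/2 no marker is filled.

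The comparison of amiR-ETP1/2 with air asked how the arrays labelled as this line differed from those of Col-0 in air. The air or gas given to amiR-ETP1/2 is unstated, so line and gas cannot be told apart in its comparisons. None of the 8 ATG genes was called (limma, Benjamini-Hochberg), where 0.62% of all probe sets were called, 0.347% higher and 0.273% lower. At an unadjusted p under 0.05 there were 3 of 8, beside 15.1% of all probe sets, and all 3 were lower in amiR-ETP1/2. These were ATG8E with a difference of -0.49 (SE 0.18, adjusted p = 0.265), ATG3 with -0.39 (SE 0.16, adjusted p = 0.306) and ATG8D with -0.55 (SE 0.23, adjusted p = 0.326). The other differences lay between -0.18 for ATG8G and 0.31 for ATG8B. The arrays of amiR-ETP1/2 and air did not overlap in 4 of 8 genes, beside 44.5% of all probe sets, with ATG8B higher and ATG3, ATG8D and ATG8E lower.

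A p that misses the threshold does not show equal levels, and the intervals give the sizes that these arrays allow. For ATG8H the 95% interval of amiR-ETP1/2 minus air was -0.24 to 0.44, and for ATG8B it was -0.07 to 0.70. For ATG8E it was -0.90 to -0.07. The widest interval, that of ATG8D, reached down to -1.09. In each of the 8 genes the interval of amiR-ETP1/2 minus air lay below that of ethylene minus air, and the direct comparison of amiR-ETP1/2 with ethylene is given further on.

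The amiR-ETP1/2 replicates differed from each other in the same direction in all 8 ATG genes. Array 1 was below array 2 by between 0.20 for ATG8H and 0.74 for ATG8D, with a median gap of -0.44, where the median gap over all probe sets was -0.04. Between the air arrays, array 1 was lower in 2 of 8 genes, and between the ethylene arrays also in 2 of 8. Over all probe sets, array 1 was lower in 56.5% for amiR-ETP1/2, 50.4% for air and 55.2% for ethylene. The median log2 difference of the ATG genes from air was -0.11 with both amiR-ETP1/2 arrays, 0.12 without array 1 and -0.36 without array 2, and it was 0.00193 without air array 1 and -0.22 without air array 2. Its direction thus depended on which arrays were used. The smallest adjusted p of any ATG gene over all alternatives was 0.056, for ATG8D without amiR-ETP1/2 array 2.

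**Figure D5:**
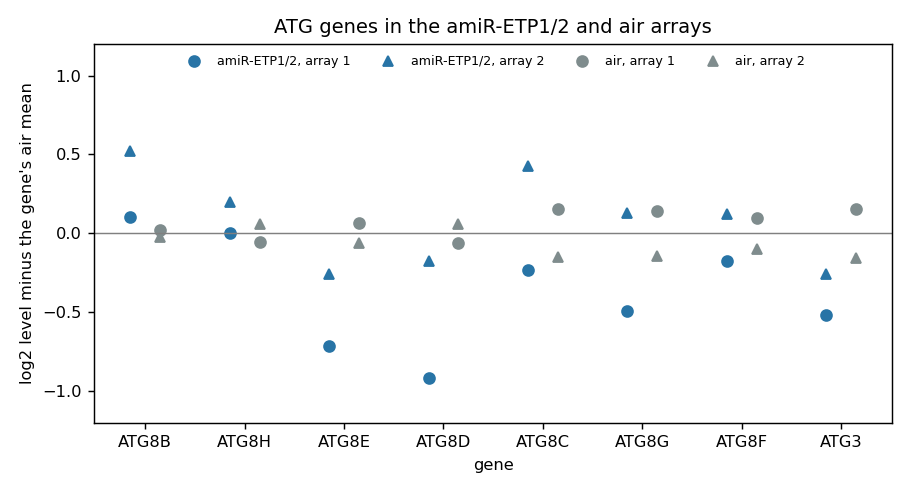
Log2 level of each ATG gene in the amiR-ETP1/2 and air arrays after subtraction of the gene's own air mean, with circles for array 1 and triangles for array 2 of each group. In each of the 8 genes the circle of amiR-ETP1/2 lies below its triangle.

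The wider lists also held no call in amiR-ETP1/2 against air. This covered 0 of 19 loci of the ATG machinery (3 at an unadjusted p under 0.05), 0 of 4 in the list of the phosphatidylinositol 3-kinase complex, receptors and adaptors (1 unadjusted), 0 of 5 in the TOR and SnRK1 list (3 unadjusted) and 0 of 2 in the vacuolar list (0 unadjusted), beside 0.62% called and 15.1% at an unadjusted p under 0.05 over all probe sets. AKINBETA1 came closest, with a log2 difference of -1.12 (SE 0.18, adjusted p = 0.0566), opposite in sign to its difference with ethylene. KINbeta3 and KINbeta2 had differences of -0.57 (adjusted p = 0.134) and 0.69 (adjusted p = 0.109), each also opposite in sign to the value with ethylene, of which that of KINbeta2 did not pass without single arrays. The air arrays are shared by both comparisons, so these values are not independent of each other. The adjusted p of AKINBETA1 ranged from 0.0231 to 0.194 over the alternatives and passed under 4 of them.

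Set directly against ethylene-treated Col-0, the amiR-ETP1/2 arrays had lower levels of all 8 ATG genes. Over all probe sets, 38.4% were called in that comparison, 20.2% lower and 18.2% higher, and the arrays of 71.0% did not overlap. The log2 difference was -3.94 for ATG8H (SE 0.14, adjusted p = 2.12e-06), -3.74 for ATG8B (SE 0.16, adjusted p = 3.75e-06) and -3.51 for ATG8E (SE 0.18, adjusted p = 6.75e-06). It was -2.42 for ATG8D (adjusted p = 0.000133) and between -1.56 and -1.21 for ATG8C, ATG8G, ATG3 and ATG8F (adjusted p at most 0.00125). The highest amiR-ETP1/2 array lay at least 0.97 below the lowest ethylene array, the smallest gap being that of ATG8F. Of the 11 further ATG loci, 10 fell, with differences of -2.38 for APG8A, -2.13 for AT5G66930, -1.64 for AT1G77890 and -1.60 for AT3G15580, and AT3G18770 had a difference of -0.07 (adjusted p = 0.748). In the TOR and SnRK1 list 3 of 5 fell and 1 rose, with differences of -4.91 for AKINBETA1 (adjusted p = 2.23e-06), -1.61 for KINbeta3 (adjusted p = 8.44e-05), -0.66 for RAPTOR1 (adjusted p = 0.0289) and 1.25 for KINbeta2 (adjusted p = 0.000433). ALPHA-VPE fell by 1.55 (adjusted p = 0.000196), and in the list of the phosphatidylinositol 3-kinase complex, receptors and adaptors 2 of 4 fell, AT3G43230 with -1.23 and AT2G32760 with -0.61. That count was 1 without either ethylene array or either amiR-ETP1/2 array, and the call of RAPTOR1 was lost without ethylene array 2 (-0.38, adjusted p = 0.133) and without either amiR-ETP1/2 array. This comparison shares the ethylene arrays with the comparison against air.

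For the 3 genes with the largest rises, the most similar profiles were sought among all other single-gene probe sets, by the root mean square distance over the 6 arrays after subtraction of each probe set's own air mean. ATG8E was closest to SDP1, a lipase that breaks down stored oil, at a distance of 0.089 log2 units, followed by Fes1C and AT5G11090 at 0.19 and 0.196. ATG8H was closest to AT5G39580 at 0.082, CCOAMT, named as a caffeoyl-CoA methyltransferase, at 0.086 and AT1G10585 at 0.11. The genes nearest to ATG8B were AT1G10585 at 0.173, AT2G15830 at 0.183 and AT5G39580 at 0.19. AT1G10585 and AT5G39580 were thus near both ATG8B and ATG8H. All these probe sets were read on the same 6 arrays, and the distances are a description with no test.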

How the data were processed

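The authors deposited 1 value per probe set and array, read here as log2 from a range of about 3 to 14, since no source states the scale. Per the submitters' processing notes limma was used. Not given in the sources used here: background correction, probe summary, normalization, limma's version and genome build. Of 22753 probe sets, 7 controls were left out. For each probe set limma 3.58.1 (R 4.3.3) estimated the 3 group means from the 6 arrays together, with no filter and no block, and p-values are two-sided with Benjamini-Hochberg adjustment over all probe sets of a comparison. SE and 95% intervals come from the moderated fit. The number of arrays limits the precision, and a permutation of 2 arrays against 2 cannot go below 0.333. The fit was tested on simulated data. The annotation gave 1 gene for 13513 probe sets, several for 503 and none for 8737, and 13436 matched a locus of TAIR10.1, used for names and chromosomes. The members and lists were chosen with earlier results of these data known. Named are all members, up to 4 called loci per list and comparison with the smallest p, and the 3 nearest profiles of ATG8B, ATG8E and ATG8H. Other named genes, such as uncalled list members, were chosen after their values were seen. Alternatives changed the normalization, centring, filter, block, arrays in the fit, prior, probe set, control probe sets and gene identity; those for the pathway lists and their genes were chosen after seeing the data.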

Additional observations from a re-analysis of the deposited data

How the results depend on the processing

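All 8 ATG genes were called higher with ethylene than in air, and lower in amiR-ETP1/2 than with ethylene, under every alternative: quantile normalization, median centring, the lowest 40% of probe sets left out, the replicate block, only the 4 arrays compared, the trend and robust options, control probe sets kept and each array left out in turn. Their adjusted p was at most 0.0341 and 0.0201 in these comparisons. No ATG gene was called in amiR-ETP1/2 against air under any of them. No gene had more than 1 probe set, so the choice of probe set had no alternative for the 8 genes. With ATG genes found by locus, 18 of 19 were called in each comparison with ethylene (medians 1.41 and -1.52, from a different set of genes). For ethylene against air, 17 of them were called with the probe set of lowest mean. Some of these calls were also lost when any single ethylene or air array was left out. Leaving out arrays in turn gave a median of -0.36 to 0.12 for amiR-ETP1/2 against air and -2.34 to -1.68 against ethylene. For the list of the phosphatidylinositol 3-kinase complex, receptors and adaptors, with 3 calls with ethylene, the count was 1 with the replicate block and 1 with the trend and robust options, and 0 to 3 without single arrays (1 to 2 for amiR-ETP1/2 against ethylene). In the TOR and SnRK1 list, with 2 rises and 1 fall with ethylene, there were 2 to 3 rises and 0 to 1 falls without single arrays, and 2 falls with the trend and robust options. In the TOR and SnRK1 list 1 locus, AKINBETA1, was called lower in amiR-ETP1/2 than in air under 4 alternatives (trend and robust options, lowest 40% left out, median centring and quantile normalization: 1 locus each), and 0 otherwise. The cause was not tested. Over all probe sets, amiR-ETP1/2 against air had 141 calls and 9 to 259 under the alternatives. The labels tie no array to another beyond the number, and same-numbered deviations correlated at 0.07, -0.14 and -0.17 across groups. With the replicate block the counts for the 8 ATG genes were 8, 0 and 8 as before.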
